A study of Mus musculus with 24 samples.

Results

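These genes stayed higher in mouse bone marrow (BM) macrophages than in induced pluripotent stem cell (iPSC) macrophages at each of 4 sampled days. A gene was a member when its mean level was at least 10 CPM (the count over the library total times 1000000, mean of 3 libraries) in BM macrophages and at least 3 times the iPSC mean at days 0, 3, 6 and 12. Of 47643 genes in the table, 75 met these values. Setting aside predicted genes with a number or clone name, the H2, Clec, Ccr, Ccl, Cts and Tgtp families and 3 single genes (Cd74, Cd163 and Ciita) removed 14 of them and left 61 members. The members were chosen by their BM and iPSC levels in these same libraries, so the difference between the sources is described here without a test. The same rule turned round gave 51 genes higher in iPSC macrophages.

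RNA was sequenced from 24 libraries in 8 groups of 3 independent replicates. The 8 groups are BM macrophages without co-culture (day 0), BM macrophages after 3, 6 and 12 days of co-culture, iPSC macrophages without co-culture (day 0) and iPSC macrophages after 3, 6 and 12 days of co-culture. The labels give no strain, sex, age or iPSC line, and they do not name the co-culture partner. Any change from day 0 covers both time and co-culture, which cannot be told apart. In bulk RNA, fewer cells of a type and less RNA per cell also cannot be told apart.

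Macrophages are tissue phagocytes that engulf dying cells and debris, present antigen and secrete enzymes, clotting factors and cytokine inhibitors. Those grown from adult bone marrow descend from blood stem cells by way of monocytes. Macrophages made from iPSCs are commonly compared with the yolk sac lineage that seeds tissue macrophages before birth, and both kinds change their expression with the tissue around them.

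Library totals ran from 5839316 to 11805478 counts. All 12 macrophage markers examined had counts in every group, and their summed level was 30160 to 43220 CPM in BM libraries and 8237 to 30280 CPM in iPSC libraries. At day 0 it was 41660 to 43220 CPM in BM libraries and 8237 to 10840 CPM in iPSC libraries. The sum did not follow the single markers. At BM day 3 against day 0, 5 of the 12 rose and 1 fell, while the mean sum went from 42260 to 34500 CPM. It is therefore not read as an amount of macrophage RNA. Markers of other cells differed between days too. The 10 fibroblast markers summed to 138 to 278 CPM in BM day 12 libraries and 1.502 to 16.2 CPM in BM day 0 libraries, and to 256 to 525 CPM in iPSC day 12 libraries and 4.30 to 31.9 CPM in iPSC day 0 libraries. At day 6 the fibroblast markers summed to 46.3 to 85.04 CPM in BM libraries and 404.6 to 853.3 CPM in iPSC libraries. The 10 neuron markers summed to 0 to 1.38 CPM in BM day 0 libraries and 1.72 to 3.06 CPM in iPSC day 0 libraries. At day 3 they summed to 50.1 to 66.6 CPM in BM and 19.35 to 48.7 CPM in iPSC libraries. The ranges were 29.5 to 59.8 and 26.03 to 49.3 CPM at day 6, and 24.2 to 30.97 and 14.6 to 24.7 CPM at day 12. The 10 astrocyte and oligodendrocyte markers summed to 135 to 179 CPM in BM day 12 libraries and 71.6 to 92.2 CPM in BM day 0 libraries, and to 171 to 254.5 CPM in iPSC day 12 libraries and 64.2 to 110.4 CPM in iPSC day 0 libraries. Of 9 of them that could be tested, 5 rose at BM day 12 and 8 rose at iPSC day 12 against day 0. The 10 B cell and plasma cell markers summed to 43.2 to 54.04 CPM in BM day 3 libraries, against 438 to 521 CPM in BM day 0 libraries and 63.7 to 114 CPM in iPSC day 0 libraries. Ighm made up most of the BM day 0 sum with a mean of 454 CPM, while Pax5 and Blk had 0 counts in every group. The 10 erythroid and megakaryocyte markers summed to 286 to 374 CPM in BM day 12 libraries and 135.5 to 173 CPM in BM day 0 libraries. Of 4 of them that could be tested, 0 rose and 1 fell between these days (median log2 change -0.58). That sum is therefore not read as an amount of such cells. The 10 T cell markers summed to 71.8 to 91.01 CPM in BM day 0 libraries and 0.113 to 10.98 CPM in iPSC day 0 libraries, nearly all of it Cd4, which macrophages can express, while Cd3g, Trbc1 and Trbc2 had 0 counts in every group. NK cell and neutrophil markers reached at most 6.31 and 4.11 CPM in any library. The part of these cells in the levels below was not tested.

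The median log2 ratio of BM over iPSC means was 3.44 at day 0, 3.90 at day 3, 3.75 at day 6 and 3.25 at day 12. Over all 7432 genes with at least 10 CPM in BM macrophages on each day (the same symbols set aside), the median was -0.07, 0.18, 0.09 and 0.19 on those days. The ratio of single members varied widely between days, although some ratios rest on few iPSC counts. The BM mean of Adam19 was 539 times the iPSC mean at day 0, where the iPSC libraries held 4 counts. At day 12 it was 10.4 times, with iPSC libraries from 0 to 5.55 CPM. That of Tspan32 was 4.18 times at day 0 and 165 times at day 3, where the iPSC libraries held 17 counts. In 60 of 61 members the 3 BM libraries lay above the 3 iPSC libraries on every day, which was so for 5.17% of those 7432 genes. The exception was Ankrd33b at day 12, with 8.07, 20.2 and 18.9 CPM in BM libraries and 1.32, 0.593 and 8.67 CPM in iPSC libraries. For 52 members the lowest of 12 BM libraries exceeded the highest of 12 iPSC libraries, against 2.25% of the 7432 genes. On single days, at least 10 CPM with a ratio of at least 3 was met by 1.05% of all genes at day 0, 1.11% at day 3, 0.716% at day 6 and 0.709% at day 12. The rule used these levels, so nothing is read from the shares.

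**Figure D1:**
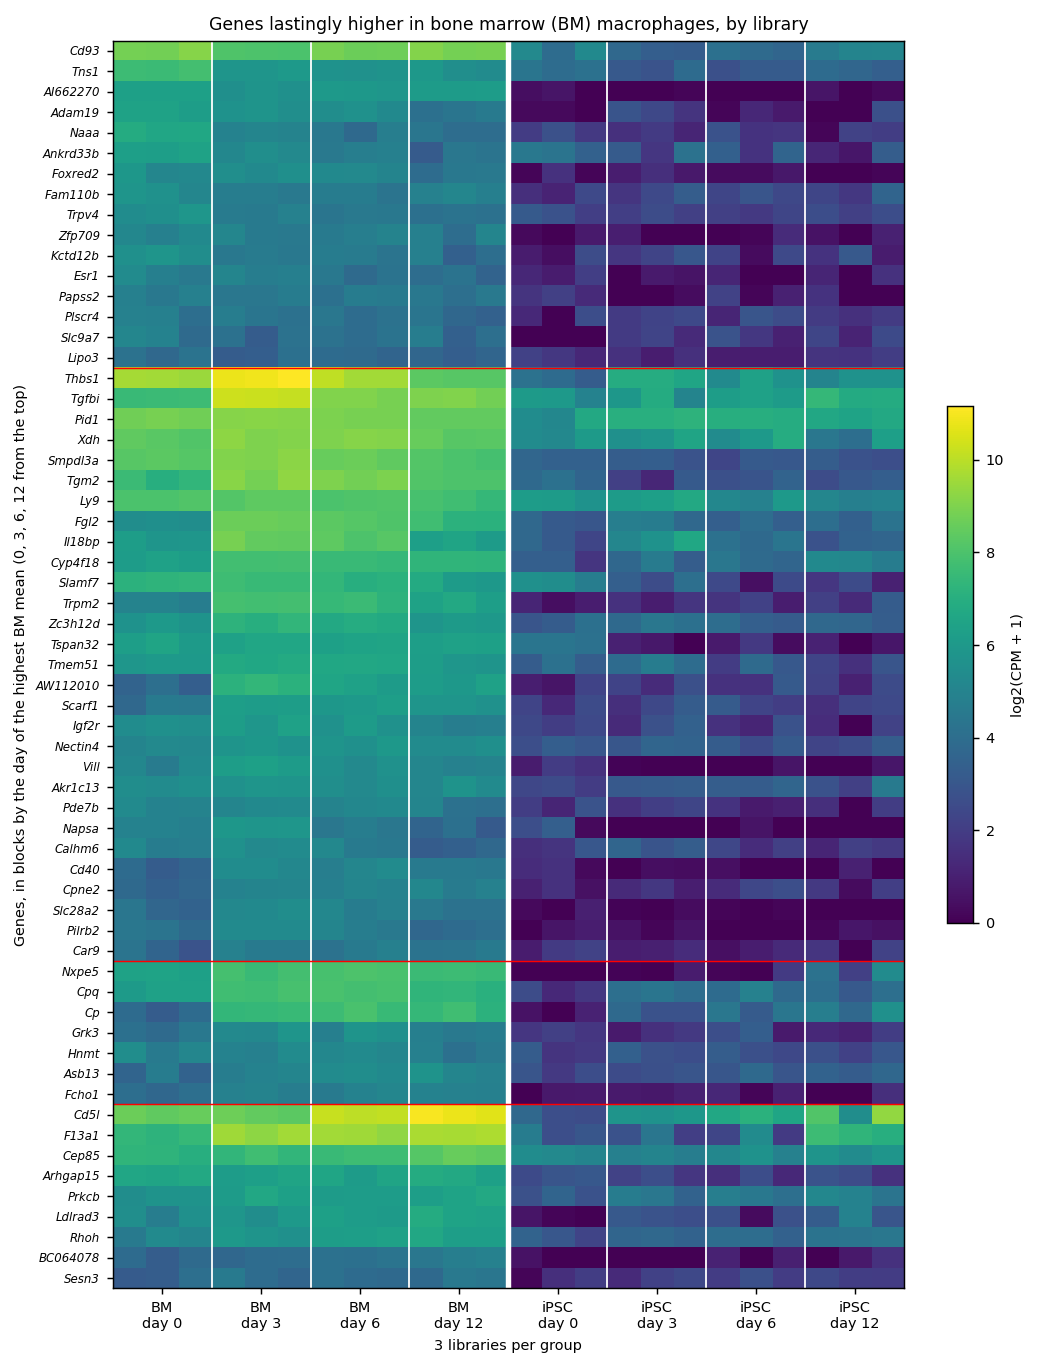
Level of the 61 members in each of 24 libraries as log2(CPM + 1), with the 12 BM libraries on the left and the 12 iPSC libraries on the right, 3 per day. Rows are in blocks by the day of the highest BM mean; the block for day 3 holds 29 genes, and the BM columns are brighter than the iPSC columns of the same day in nearly every row.

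At the edge of the rule, Asb13, Prkcb and Ankrd33b were the members with the smallest lowest-day ratio, at 3.15, 3.21 and 3.29. The nearest genes outside were Ermard, Zmynd15 and Cd48, at 2.96, 2.87 and 2.87. At the other end stood AI662270, a little-described gene, at 265, followed by Zfp709 at 45.6, Foxred2 at 38.4, Pilrb2 at 36.4 and Slc28a2 at 34.9. In BM macrophages AI662270 had 78.9, 80.5 and 80.6 CPM at day 0, 46.2, 54.04 and 47.9 at day 3, 65, 59.9 and 57.4 at day 6 and 68.7, 69.1 and 70.6 at day 12. In iPSC macrophages AI662270 had 0.3397, 0.566 and 0 CPM at day 0, 0, 0 and 0.103 at day 3, 0, 0 and 0 at day 6 and 0.552, 0 and 0.202 at day 12. No BM library of AI662270 came near an iPSC library. No member had 0 counts in all 12 iPSC libraries, and 22 had 0 counts in at least 1. Of the 61 members, 19 had a mean of at least 100 CPM over the 12 BM libraries. Per kilobase of exon, Cd5l had the highest BM level at 453 CPM per kb, followed by Tgfbi at 224, Smpdl3a at 179 and Thbs1 at 163 CPM per kb, while Sesn3 was lowest at 0.985 CPM per kb.

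Changes between days within one source were not what the rule compared, although it keeps out any gene that dropped below 10 CPM in BM macrophages. The rule also used the BM and iPSC means of each day for its ratio, so it bears on which changes members can show. Counts and medians of members stand beside those of all genes as description, and nothing is read from the difference. The changes were tested with edgeR over 15000 genes, and a gene was called at an adjusted p below 0.05. In BM macrophages after 3 days of co-culture against day 0, 17 members rose and 4 fell. Over all 15000 genes 11.9% rose and 6.61% fell, and over the 7432 genes with at least 10 CPM in BM macrophages on each day 10.4% rose and 10.6% fell. The median log2 change of the members was 0.57, against 0.04 over all genes. At day 12 against day 3, 3 members rose and 14 fell, where 4.2% of all genes rose and 4.25% fell, and 4.25% and 5.91% of the 7432 genes. The median log2 change was -0.66 for members and 0.01 for all genes. At day 12 against day 0, 12 members rose and 8 fell, where 14.7% of all genes rose and 9.08% fell, and 11.6% and 14.1% of the 7432 genes. The median log2 change was -0.14 for members and 0.04 for all genes. Leaving out 1 library moved some of these counts: 5 members fell at day 12 against day 0 without BM day 12 replicate 1, 1 rose at day 12 against day 3 without BM day 3 replicate 3, and 8 to 10 fell at day 12 against day 3 without any 1 of the 6 libraries. The comparisons share libraries, so the members' directions in them are not independent of each other.

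Day 3 was the day of the highest BM mean for 29 of 61 members (47.5%), against 21.6% of the 7432 genes. Day 0 was highest for 16 members (26.2%, against 27.7%), day 6 for 7 (11.5%, against 17.3%) and day 12 for 9 (14.8%, against 33.4%). The rule used these BM means for a floor and a ratio, while the 7432 genes had to meet only the floor. Nothing is read from the difference between the shares.

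**Figure D2:**
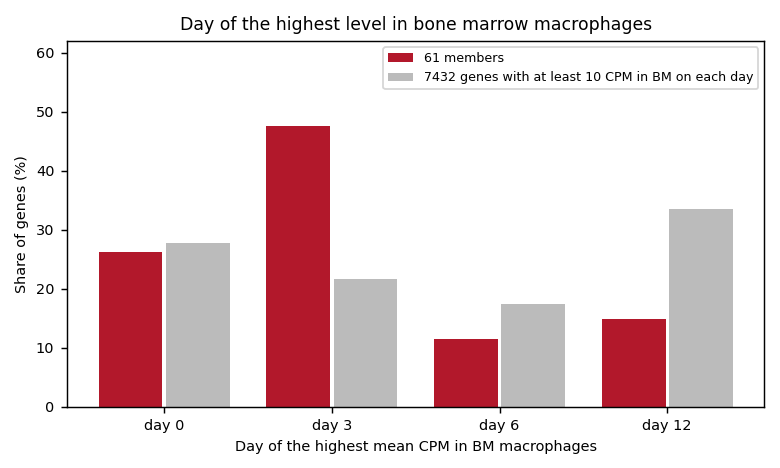
Share of genes (percent) by the day of their highest mean CPM in BM macrophages, for the 61 members and for the 7432 genes with at least 10 CPM in BM macrophages on each day. Day 3 holds 47.5% of members and 21.6% of the other set, which includes the members, and day 12 holds 14.8% and 33.4%. The members were chosen by these BM means, so nothing is read from the difference.

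Members were grouped by role after their values were seen, so the calls per group are description and nothing is read about a role. The 10 secreted, matrix and adhesion genes, with Tgm2, Cp, Tns1 and Adam19 placed among them, held some of the highest levels. At day 3 against day 0 in BM macrophages 6 rose, 1 fell and 3 were not called, where 11.9% of all genes rose and 6.61% fell; at day 12 against day 3, 1 rose and 5 fell, where 4.2% and 4.25% of all genes did. Thbs1 encodes thrombospondin 1, a large matrix glycoprotein that binds CD36 and CD47 and activates latent TGF-beta, and it lies on chromosome 2 at 118111876 to 118127133, plus strand in GRCm38. In BM macrophages Thbs1 had 794, 768 and 718.5 CPM at day 0, 1806, 1917 and 2277 at day 3, 1096, 781 and 787 at day 6 and 328, 305 and 306 at day 12. In iPSC macrophages Thbs1 had 17.2, 14.04 and 8.501 CPM at day 0, 118, 119 and 92.8 at day 3, 39.01, 82.9 and 50.2 at day 6 and 31.35, 50.65 and 50.3 at day 12. Each day 3 BM library was above each day 0 BM library, and each day 12 BM library was below all of them. Thbs1 rose at day 3 (log2 fold change 1.32 ± 0.23 SE, adjusted p = 0.00015) and fell at day 12 against day 3 (log2 fold change -2.77 ± 0.24 SE, adjusted p = 4.5e-08) and against day 0 (log2 fold change -1.45 ± 0.23 SE, adjusted p = 4.1e-05).

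Tgfbi encodes a TGF-beta-induced matrix protein that binds collagen and integrins (on chromosome 13 at 56609603 to 56639339, plus strand). In BM macrophages Tgfbi had 186, 196 and 198 CPM at day 0, 1254, 1211 and 1146 at day 3, 532, 529 and 464.5 at day 6 and 509, 533.5 and 442 at day 12. In iPSC macrophages Tgfbi had 67.15, 64.4 and 30.02 CPM at day 0, 59.35, 115 and 32.04 at day 3, 73.8, 81.8 and 69.4 at day 6 and 170.0, 112.5 and 116.5 at day 12. The BM day 3 libraries stood above all others, and those of days 6 and 12 lay between them and day 0. The level rose at day 3 against day 0 (log2 fold change 2.56 ± 0.32 SE, adjusted p = 5e-06), fell at day 12 against day 3 (log2 fold change -1.37 ± 0.31 SE, adjusted p = 0.0057) and was above day 0 at day 12 (log2 fold change 1.18 ± 0.31 SE, adjusted p = 0.0073). Fgl2 encodes a fibrinogen-like protein, known in a membrane-bound form as a prothrombinase and in a soluble form as an immune regulator. In BM macrophages Fgl2 had 43.2, 46.3 and 42.8 CPM at day 0, 396, 403 and 373 at day 3, 324, 297 and 268 at day 6 and 211, 143 and 139 at day 12. In iPSC macrophages Fgl2 had 12.6, 7.92 and 6.99 CPM at day 0, 26.3, 24.8 and 12.5 at day 3, 9.475, 14.7 and 9.44 at day 6 and 15.2, 9.57 and 17.95 at day 12. Every BM library at days 3, 6 and 12 exceeded the day 0 libraries, with a change of log2 fold change 3.07 ± 0.25 SE, adjusted p = 2.7e-09 at day 3 and log2 fold change 1.72 ± 0.24 SE, adjusted p = 7.6e-06 at day 12. Tgm2 encodes transglutaminase 2, which crosslinks proteins and takes part in uptake of dying cells. In BM macrophages Tgm2 had 193, 128 and 161 CPM at day 0, 568, 446 and 632 at day 3, 515, 432 and 501 at day 6 and 275.5, 265 and 259.7 at day 12. All 9 co-cultured BM libraries of Tgm2 exceeded the day 0 libraries. Its rise at day 3 (log2 fold change 1.69 ± 0.31 SE, adjusted p = 0.00042) was followed by a fall at day 12 against day 3 (log2 fold change -1.13 ± 0.31 SE, adjusted p = 0.022). That later fall lost its call without any 1 of 5 of the 6 libraries (adjusted p = 0.071 to 0.1). Exons of other genes overlap 21.8% of the exon bases of Tgm2.

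F13a1 encodes the A chain of coagulation factor XIII, which crosslinks fibrin and is common in tissue macrophages and monocytes. In BM macrophages F13a1 had 167, 146 and 175 CPM at day 0, 763, 615 and 779.8 at day 3, 772, 765 and 627 at day 6 and 850.2, 834 and 882.5 at day 12. In iPSC macrophages F13a1 had 24.6, 5.43 and 6.89 CPM at day 0, 6.11, 20.02 and 3.19 at day 3, 4.06, 41.03 and 2.765 at day 6 and 199, 157 and 127 at day 12. The 9 co-cultured BM libraries were all above the 3 BM libraries at day 0. The change at day 12 was log2 fold change 2.22 ± 0.72 SE, adjusted p = 0.032, and the call was lost without any 1 of the 6 libraries (adjusted p = 0.063 to 0.1). In a fit on the 12 BM libraries alone, an alternative chosen after seeing the data, the adjusted p was 4.1e-11. Cp encodes ceruloplasmin, a copper-binding ferroxidase that helps export iron. In BM macrophages Cp had 13.8, 8.596 and 14.1 CPM at day 0, 165, 169 and 183 at day 3, 200.3, 248 and 183.5 at day 6 and 171, 209 and 142 at day 12. In iPSC macrophages Cp had 0.453, 0 and 1.08 CPM at day 0, 13.2, 6.07 and 5.975 at day 3, 20.3, 8.31 and 19.55 at day 6 and 26.2, 12.6 and 47.8 at day 12. All 9 co-cultured BM libraries of Cp lay far above those at day 0. Its rise was the largest of any member in both comparisons with BM day 0, at log2 fold change 3.74 ± 0.45 SE, adjusted p = 3.6e-06 for day 3 and log2 fold change 3.66 ± 0.45 SE, adjusted p = 3.9e-06 for day 12.

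Cd5l encodes AIM, a secreted scavenger-receptor cysteine-rich protein that inhibits macrophage apoptosis and binds to circulating IgM. In BM macrophages Cd5l had 396, 343 and 371.5 CPM at day 0, 412, 355 and 327 at day 3, 1195, 1061 and 1126 at day 6 and 2092, 1794 and 1587 at day 12. In iPSC macrophages Cd5l had 12.6, 5.43 and 5.06 CPM at day 0, 52.9, 49.9 and 58.6 at day 3, 100.9, 138 and 92.97 at day 6 and 275, 43.6 and 650.4 at day 12. Its BM level was alike at days 0 and 3, higher at day 6 and highest at day 12, where each library exceeded every earlier one. The day 12 change was log2 fold change 2.13 ± 0.51 SE, adjusted p = 0.0048 against day 0 and log2 fold change 2.23 ± 0.52 SE, adjusted p = 0.0086 against day 3, and the call against day 3 was lost without BM day 3 replicate 3 (adjusted p = 0.054). Il18bp encodes the soluble inhibitor of interleukin 18. In BM macrophages Il18bp had 72.8, 56.05 and 57.6 CPM at day 0, 466, 351 and 344.5 at day 3, 333, 262 and 305 at day 6 and 78.6, 91.7 and 68.02 at day 12. In iPSC macrophages Il18bp had 12.7, 8.04 and 4.09 CPM at day 0, 34.1, 50.6 and 97.9 at day 3, 16.9, 13.2 and 19.1 at day 6 and 6.07, 10.3 and 11.6 at day 12. Days 3 and 6 stood clear of days 0 and 12, whose BM libraries overlapped. Il18bp rose at day 3 (log2 fold change 2.56 ± 0.33 SE, adjusted p = 6.2e-06) and fell at day 12 against day 3 (log2 fold change -2.38 ± 0.33 SE, adjusted p = 4.9e-05).

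A pair of adhesion genes ran the other way. Tns1 encodes tensin 1, which ties integrins to the actin cytoskeleton. In BM macrophages Tns1 had 197, 194 and 223 CPM at day 0, 55.6, 54.9 and 64.45 at day 3, 50.8, 49.3 and 52.2 at day 6 and 60.1, 45 and 40.9 at day 12. In iPSC macrophages Tns1 had 19.5, 14.4 and 17 CPM at day 0, 7.78, 6.175 and 13.9 at day 3, 5.54, 8.18 and 8.296 at day 6 and 14.1, 11.8 and 9.38 at day 12. All BM libraries in co-culture lay below those at day 0, with a change of log2 fold change -1.89 ± 0.23 SE, adjusted p = 1.1e-06 at day 3 and log2 fold change -2.25 ± 0.23 SE, adjusted p = 1.1e-07 at day 12. Adam19 encodes a membrane metalloproteinase that sheds neuregulins and other surface proteins. In BM macrophages Adam19 had 86.04, 86.1 and 72.1 CPM at day 0, 49.9, 54.04 and 43.99 at day 3, 42.9, 48.3 and 38.8 at day 6 and 16.15, 19.03 and 22.5 at day 12. In iPSC macrophages Adam19 had 0.2265, 0.226 and 0 CPM at day 0, 6.39, 4.365 and 2.16 at day 3, 0.123, 1.38 and 0.763 at day 6 and 0, 0 and 5.55 at day 12. The BM day 12 libraries lay below every earlier BM library. The fall at day 12 (log2 fold change -2.25 ± 0.67 SE, adjusted p = 0.019) was lost without any 1 of 5 of the 6 libraries (adjusted p = 0.052 to 0.077) and in DESeq2.

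**Figure D3:**
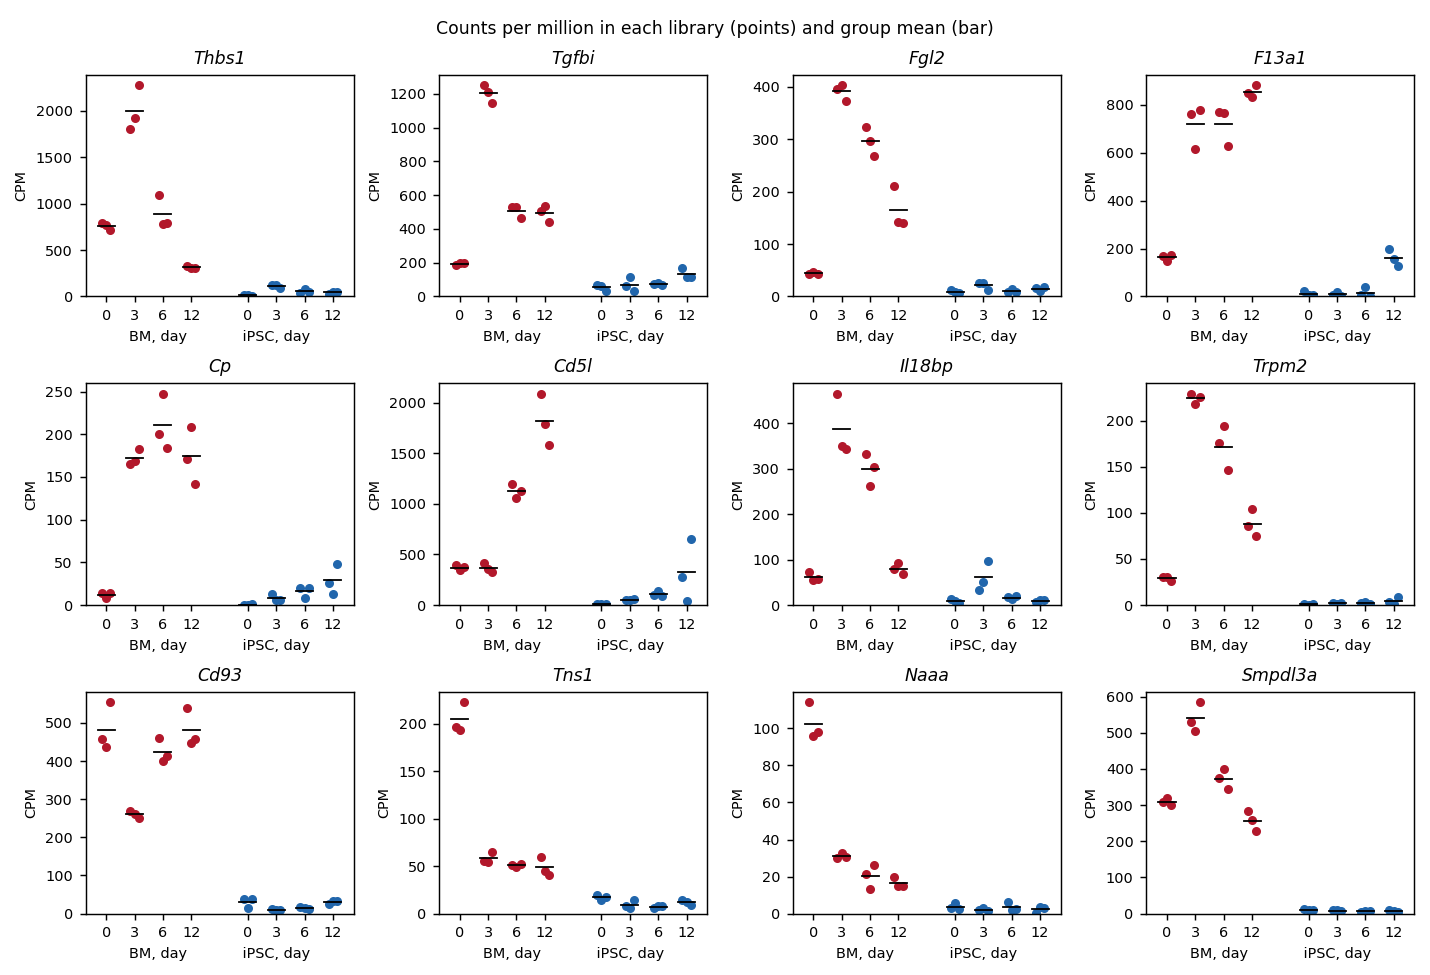
CPM of 12 members in each library (points) with the mean of 3 (bar), BM macrophages in red on the left of each panel and iPSC macrophages in blue on the right, over days 0, 3, 6 and 12. Thbs1, Tgfbi, Fgl2, Il18bp, Trpm2 and Smpdl3a have their highest BM mean at day 3, Cd5l and F13a1 at day 12, and Tns1 and Naaa at day 0.

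Among 10 surface receptors and other membrane proteins, 2 rose and 1 fell in BM macrophages at day 3 against day 0 in the fit of 24 libraries. Of all genes 11.9% rose and 6.61% fell. In the fit on the 12 BM libraries alone, Pilrb2, Nectin4 and Igf2r also rose (adjusted p = 0.00043 to 0.009), and Cd93 was the only one that fell. There 18.5% of all tested genes rose and 12% fell. Of the 10, 8 had their highest BM mean at day 3. Cd93 encodes a C-type lectin-like receptor of myeloid and endothelial cells involved in adhesion and clearance of dying cells. In BM macrophages Cd93 had 457, 436 and 555 CPM at day 0, 269, 261 and 251 at day 3, 459.8, 399 and 412 at day 6 and 539.7, 447 and 459 at day 12. In iPSC macrophages Cd93 had 37.03, 14.3 and 37.8 CPM at day 0, 12.6, 9.05 and 8.45 at day 3, 16.2, 13.6 and 11.5 at day 6 and 24.1, 32.2 and 32.98 at day 12. It was lowest at day 3 and returned at days 6 and 12 to the range near day 0. The change was log2 fold change -0.97 ± 0.23 SE, adjusted p = 0.0033 at day 3 against day 0 and log2 fold change 0.79 ± 0.23 SE, adjusted p = 0.028 at day 12 against day 3, and that later call was lost without any 1 of the 6 libraries (adjusted p = 0.057 to 0.11). The 8 endothelial markers summed to 55.0 to 75.3 CPM in BM day 0 libraries and 48.8 to 59.0 CPM in BM day 3 libraries. They summed to 23.1 to 32.7 CPM at BM day 6 and 8.98 to 15.04 CPM at BM day 12, days when Cd93 was back near its day 0 range. Scarf1 encodes a scavenger receptor that binds apoptotic cells through C1q. In BM macrophages Scarf1 had 12.8, 22.35 and 21.65 CPM at day 0, 75.9, 70.04 and 72.8 at day 3, 58.3, 65.25 and 74.9 at day 6 and 55.2, 54.5 and 48.6 at day 12. In iPSC macrophages Scarf1 had 3.85, 1.47 and 4.84 CPM at day 0, 1.85, 4.365 and 8.45 at day 3, 8.12, 3.902 and 3.05 at day 6 and 1.88, 3.81 and 4.44 at day 12. Every co-cultured BM library was above the day 0 libraries. Scarf1 rose at day 3 (log2 fold change 1.86 ± 0.40 SE, adjusted p = 0.0014) and stood higher at day 12 than at day 0 (log2 fold change 1.31 ± 0.39 SE, adjusted p = 0.017), a call lost without BM day 0 replicate 1 (adjusted p = 0.094).

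Ly9 and Slamf7 are receptors of the SLAM family, which bind their own kind on neighbouring immune cells. In BM macrophages Ly9 had 257, 255 and 277 CPM at day 0, 290.4, 334.5 and 330.2 at day 3, 257, 273 and 274 at day 6 and 241, 213 and 172 at day 12. In iPSC macrophages Ly9 had 69.98, 68.4 and 51.01 CPM at day 0, 68.2, 77.3 and 104 at day 3, 34.8, 29.1 and 61.98 at day 6 and 33.45, 26.85 and 29.45 at day 12. The BM and iPSC libraries of Ly9 did not overlap on any day. In BM macrophages Slamf7 had 143, 152 and 161 CPM at day 0, 203, 182 and 181 at day 3, 167, 126 and 138 at day 6 and 111, 67.7 and 61.3 at day 12. In iPSC macrophages Slamf7 had 47.9, 43.6 and 25.5 CPM at day 0, 9.35, 5.11 and 15.9 at day 3, 4.43, 0.378 and 4.67 at day 6 and 2.43, 4.91 and 1.01 at day 12. Both had their highest BM mean at day 3 and their lowest at day 12. In BM macrophages Ly9 fell at day 12 against day 3 (log2 fold change -0.70 ± 0.20 SE, adjusted p = 0.032), which was lost without any 1 of 5 of the 6 libraries (adjusted p = 0.052 to 0.17), and Slamf7 was not called (log2 fold change -1.34 ± 0.44 SE, adjusted p = 0.07). Cd40 encodes the receptor through which T cells license antigen-presenting cells. In BM macrophages Cd40 had 13.95, 8.596 and 11.1 CPM at day 0, 41.5, 41.9 and 34.6 at day 3, 26.3, 33.4 and 40.2 at day 6 and 22.2, 23.3 and 21.25 at day 12. In iPSC macrophages Cd40 had 1.699, 2.04 and 0.215 CPM at day 0, 0, 0.319 and 0.309 at day 3, 0.369, 0 and 0 at day 6 and 0, 1.02 and 0 at day 12. Every co-cultured BM library of Cd40 was above those at day 0. Its rise at day 3 (log2 fold change 1.73 ± 0.56 SE, adjusted p = 0.032) was lost without any 1 of the 6 libraries (adjusted p = 0.058 to 0.12), and in the fit on the 12 BM libraries alone the adjusted p was 3.6e-06. Pilrb2 encodes an activating paired immunoglobulin-like receptor. In BM macrophages Pilrb2 had 20.3, 18.45 and 13.1 CPM at day 0, 39.3, 39.2 and 39.5 at day 3, 32.6, 25.7 and 22.05 at day 6 and 12.3, 14 and 15.8 at day 12. In iPSC macrophages Pilrb2 had 0, 0.566 and 0.861 CPM at day 0, 0.463, 0.1065 and 0.515 at day 3, 0, 0 and 0 at day 6 and 0.1104, 0.593 and 0.4035 at day 12. The day 3 libraries were the highest, and those of days 0 and 12 overlapped. It fell at day 12 against day 3 (log2 fold change -1.58 ± 0.41 SE, adjusted p = 0.015), lost without any 1 of 4 of the 6 libraries (adjusted p = 0.052 to 0.069). Pilrb2 has near-identical relatives, so its reads may be shared with them.

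The remaining receptors in this group had no call in the BM comparisons. They were Nectin4, an adhesion molecule of the nectin family, Tspan32, a tetraspanin of blood cells, Igf2r, which binds IGF2 and carries lysosomal enzymes marked with mannose 6-phosphate, and Ldlrad3, a relative of the LDL receptor. In BM macrophages Tspan32 had 74.8, 90.8 and 66.8 CPM at day 0, 82.2, 96.1 and 94.7 at day 3, 80.8, 86.8 and 90.9 at day 6 and 76.1, 82.5 and 79.7 at day 12. Those BM libraries spanned 66.8 to 96.1 CPM over all days.

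Of the 12 enzymes, 3 rose and 1 fell at day 3 against day 0, where 11.9% of all genes rose and 6.61% fell. Naaa encodes a lysosomal amidase that breaks down the lipid mediator palmitoylethanolamide. In BM macrophages Naaa had 114, 95.8 and 97.97 CPM at day 0, 29.9, 32.8 and 30.6 at day 3, 21.1, 13.2 and 25.98 at day 6 and 19.8, 14.65 and 15.1 at day 12. In iPSC macrophages Naaa had 2.94, 5.77 and 2.58 CPM at day 0, 1.945, 2.77 and 1.24 at day 3, 6.03, 2.14 and 2.29 at day 6 and 0.1104, 3.56 and 3.13 at day 12. Each BM day 0 library was above every co-cultured BM library. It fell at day 3 (log2 fold change -1.80 ± 0.45 SE, adjusted p = 0.0064) and showed the largest fall of any member at day 12 against day 0 (log2 fold change -2.81 ± 0.47 SE, adjusted p = 9.6e-05). Smpdl3a encodes a phosphodiesterase related to acid sphingomyelinase, known in human macrophages as a target of the liver X receptors. In BM macrophages Smpdl3a had 308, 321 and 299 CPM at day 0, 529, 505 and 585 at day 3, 375, 401 and 344 at day 6 and 283.5, 258 and 229 at day 12. In iPSC macrophages Smpdl3a had 12, 10.2 and 10.1 CPM at day 0, 8.797, 9.05 and 6.28 at day 3, 4.06, 8.055 and 7.53 at day 6 and 8.83, 6.01 and 5.45 at day 12. No iPSC library came near any BM library. In BM macrophages it rose at day 3 against day 0 (log2 fold change 0.72 ± 0.18 SE, adjusted p = 0.0046) and fell at day 12 against day 3 (log2 fold change -1.16 ± 0.18 SE, adjusted p = 9.7e-05).

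Cpq encodes a carboxypeptidase and Cyp4f18 a cytochrome P450 that hydroxylates leukotriene B4. In BM macrophages Cpq had 66.99, 82.6 and 83.7 CPM at day 0, 209, 204 and 242 at day 3, 245, 225 and 241 at day 6 and 159, 161 and 136 at day 12. The co-cultured BM libraries all lay above day 0. Cpq rose at day 3 (log2 fold change 1.41 ± 0.27 SE, adjusted p = 0.00047) and at day 12 against day 0 (log2 fold change 0.79 ± 0.27 SE, adjusted p = 0.033), a call lost without any 1 of 5 of the 6 libraries (adjusted p = 0.058 to 0.12). In BM macrophages Cyp4f18 had 71.7, 82.6 and 73.8 CPM at day 0, 217, 218 and 227 at day 3, 185, 187.5 and 170.3 at day 6 and 157, 158 and 151 at day 12. Again no co-cultured BM library overlapped day 0. Its day 3 change was log2 fold change 1.46 ± 0.33 SE, adjusted p = 0.0027. Napsa encodes the aspartic protease napsin A. In BM macrophages Napsa had 30.1, 30.03 and 26.9 CPM at day 0, 58.6, 56.2 and 57.5 at day 3, 20.4, 25.9 and 20.15 at day 6 and 10.95, 16.6 and 8.04 at day 12. In iPSC macrophages Napsa had 5.435, 9.28 and 0.215 CPM at day 0, 0, 0 and 0 at day 3, 0, 0.503 and 0 at day 6 and 0, 0 and 0 at day 12. It was the one member with no counts in the iPSC libraries of both day 3 and day 12. Its BM level fell at day 12 against day 3 (log2 fold change -2.36 ± 0.62 SE, adjusted p = 0.022), lost without any 1 of 5 of the 6 libraries (adjusted p = 0.059 to 0.11).

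Foxred2 encodes an oxidoreductase of the endoplasmic reticulum that acts in the disposal of misfolded proteins. In BM macrophages Foxred2 had 59.6, 33.9 and 36.04 CPM at day 0, 45.1, 38.35 and 45.7 at day 3, 38.4, 36.99 and 32.2 at day 6 and 14.2, 20.85 and 21.75 at day 12. In iPSC macrophages Foxred2 had 0.113, 2.04 and 0.108 CPM at day 0, 0.833, 1.81 and 0.721 at day 3, 0.246, 0.252 and 0.6675 at day 6 and 0, 0 and 0.101 at day 12. The BM day 12 libraries were below all earlier BM libraries. Its BM level fell at day 12 against day 0 (log2 fold change -1.36 ± 0.43 SE, adjusted p = 0.023), lost without any 1 of 3 of the 6 libraries (adjusted p = 0.051 to 0.14). Xdh, which encodes the xanthine oxidoreductase that makes uric acid, ranked among the 12 members of highest BM level without a call in the BM comparisons. In the edgeR fit on the 12 BM libraries alone, Xdh rose at day 3 against day 0 (log2 fold change 0.76, adjusted p = 8.2e-06). There it fell at day 12 against day 3 (log2 fold change -0.83, adjusted p = 5.8e-06). In BM macrophages Xdh had 339, 315 and 280.2 CPM at day 0, 620.2, 505 and 534 at day 3, 517, 563 and 537 at day 6 and 374, 303.5 and 315.5 at day 12. In iPSC macrophages Xdh had 40.1, 36.3 and 66.5 CPM at day 0, 47.1, 54.8 and 90.96 at day 3, 40.2, 62.8 and 119.8 at day 6 and 20.8, 15.2 and 78.4 at day 12. All BM values of Xdh exceeded all iPSC values. The other enzymes without a BM call were Hnmt, which inactivates histamine, Papss2, which makes the sulfate donor PAPS, Car9, a membrane carbonic anhydrase induced by low oxygen, Akr1c13, an aldo-keto reductase, and Lipo3, a member of the lipase family. Akr1c13 and Lipo3 have close relatives among their neighbours, so reads may be shared.

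A pair of calcium-permeable channels of the TRP family moved in opposite directions. Trpm2 encodes a channel opened by ADP-ribose and oxidative stress. In BM macrophages Trpm2 had 30.75, 30.5 and 25.8 CPM at day 0, 229.6, 218 and 226 at day 3, 176, 194 and 146 at day 6 and 85.6, 104 and 75.3 at day 12. In iPSC macrophages Trpm2 had 1.25, 0.3396 and 0.861 CPM at day 0, 2.04, 0.852 and 2.27 at day 3, 2.215, 3.398 and 0.858 at day 6 and 3.31, 1.525 and 8.57 at day 12. BM libraries in co-culture were all above day 0, and those of day 12 were below days 3 and 6. Trpm2 rose at day 3 (log2 fold change 2.87 ± 0.36 SE, adjusted p = 4e-06) and was higher at day 12 than at day 0 (log2 fold change 1.44 ± 0.35 SE, adjusted p = 0.0039). At day 12 against day 3 it fell (log2 fold change -1.44 ± 0.34 SE, adjusted p = 0.0086), a call lost without BM day 12 replicate 3 (adjusted p = 0.058). Trpv4 encodes a channel opened by osmotic and mechanical stimuli. In BM macrophages Trpv4 had 41.5, 45.96 and 57.4 CPM at day 0, 24, 23.4 and 28.9 at day 3, 19, 22.1 and 21.3 at day 6 and 16.15, 18.3 and 16.7 at day 12. In iPSC macrophages Trpv4 had 7.93, 6.11 and 3.23 CPM at day 0, 3.24, 5.004 and 3.296 at day 3, 3.32, 2.64 and 4.100 at day 6 and 5.299, 3.39 and 5.14 at day 12. No co-cultured BM library reached the day 0 libraries. It fell at day 12 against day 0 (log2 fold change -1.68 ± 0.28 SE, adjusted p = 7e-05), and at day 3 against day 0 (log2 fold change -1.01 ± 0.27 SE, adjusted p = 0.011), where the call was lost without BM day 0 replicate 3 or BM day 3 replicate 2 (adjusted p = 0.054 to 0.085).

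Calhm6 encodes a channel-forming protein that lets ATP pass and is known as an interferon gamma target in macrophages. In BM macrophages Calhm6 had 37.98, 24.9 and 26.03 CPM at day 0, 48.45, 36.8 and 40.8 at day 3, 35.4, 22.8 and 21.4 at day 6 and 8.52, 9.62 and 12.6 at day 12. In iPSC macrophages Calhm6 had 1.81, 2.15 and 7.21 CPM at day 0, 11.4, 6.39 and 8.76 at day 3, 4.18, 1.64 and 3.34 at day 6 and 1.21, 3.304 and 2.62 at day 12. The BM day 12 libraries were the lowest. Its BM level fell at day 12 against day 3 (log2 fold change -2.13 ± 0.42 SE, adjusted p = 0.0014) and day 0 (log2 fold change -1.70 ± 0.42 SE, adjusted p = 0.0037). Slc28a2 encodes a sodium-coupled nucleoside transporter. In BM macrophages Slc28a2 had 19.7, 11.7 and 10.4 CPM at day 0, 35.5, 38.6 and 43.3 at day 3, 35.3, 24.3 and 29.02 at day 6 and 21.6, 17.6 and 17.5 at day 12. In iPSC macrophages Slc28a2 had 0.2265, 0 and 0.9685 CPM at day 0, 0.0926, 0 and 0.309 at day 3, 0.123, 0 and 0.0954 at day 6 and 0, 0 and 0 at day 12. BM libraries of days 3 and 0 did not overlap. The day 3 rise (log2 fold change 1.41 ± 0.43 SE, adjusted p = 0.023) was lost without any 1 of 4 of the 6 libraries (adjusted p = 0.059 to 0.096). Slc9a7, a sodium and proton exchanger of the Golgi, had no call in BM macrophages.

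Of 11 genes of signalling and gene regulation, 2 rose at day 3 and 2 at day 12 against day 0 in the fit of 24 libraries. Of all genes 11.9% and 14.7% rose. In the fit on the 12 BM libraries alone, Pid1, Asb13, Prkcb and Grk3 also rose at day 3 (adjusted p = 0.00072 to 0.025), where 18.5% of all tested genes rose. At day 12 against day 0 Prkcb also rose in that fit, and Pid1, Pde7b and Esr1 fell. Rhoh encodes a GTPase-deficient signalling protein of blood cells. In BM macrophages Rhoh had 22.4, 38.9 and 33.03 CPM at day 0, 64.1, 54.04 and 47.2 at day 3, 73.8, 76.04 and 83.4 at day 6 and 103, 76.2 and 76.1 at day 12. In iPSC macrophages Rhoh had 10.6, 7.24 and 3.87 CPM at day 0, 11.6, 12.6 and 10.4 at day 3, 14.6, 14.98 and 10.01 at day 6 and 17.8, 18.5 and 20.3 at day 12. BM libraries of day 3 lay above day 0, and those of day 12 overlapped day 6. Rhoh rose at day 12 (log2 fold change 1.27 ± 0.25 SE, adjusted p = 0.00039) and at day 3 (log2 fold change 0.73 ± 0.24 SE, adjusted p = 0.037), with the day 3 call lost without any 1 of 4 of the 6 libraries (adjusted p = 0.058 to 0.16). Zc3h12d encodes a member of the regnase family, whose members degrade inflammatory mRNAs. In BM macrophages Zc3h12d had 49.8, 64.3 and 52.3 CPM at day 0, 149, 125 and 162 at day 3, 106, 119 and 109.6 at day 6 and 55.4, 67.2 and 60.3 at day 12. Days 3 and 6 stood above days 0 and 12, whose libraries overlapped. This gene rose at day 3 (log2 fold change 1.31 ± 0.26 SE, adjusted p = 0.00059) and fell at day 12 against day 3 (log2 fold change -1.34 ± 0.26 SE, adjusted p = 0.001). Pid1, which encodes a phosphotyrosine-interaction domain protein that dampens insulin signalling in fat cells, was among the most abundant members. In BM macrophages Pid1 had 428.5, 469 and 429.6 CPM at day 0, 563, 570.4 and 557 at day 3, 489, 472 and 471 at day 6 and 349.6, 351.5 and 354 at day 12. In iPSC macrophages Pid1 had 42.6, 34.6 and 106.5 CPM at day 0, 131, 129 and 147 at day 3, 128, 127 and 119 at day 6 and 102, 88.4 and 105 at day 12. The BM day 12 libraries lay below every earlier one. Its fall at day 12 against day 3 (log2 fold change -0.77 ± 0.23 SE, adjusted p = 0.041) was lost without any 1 of the 6 libraries (adjusted p = 0.1 to 0.11). Asb13, a substrate receptor of ubiquitin ligases, rose at day 12 against day 0 (log2 fold change 1.12 ± 0.34 SE, adjusted p = 0.016), a call lost without any 1 of 3 of the 6 libraries (adjusted p = 0.094 to 0.11).

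Esr1 encodes oestrogen receptor alpha. In BM macrophages Esr1 had 40.1, 27.05 and 22.02 CPM at day 0, 32.5, 25.8 and 27.1 at day 3, 21, 13.5 and 17.9 at day 6 and 14.7, 17.85 and 10.7 at day 12. In iPSC macrophages Esr1 had 1.36, 0.792 and 3.23 CPM at day 0, 0, 0.745 and 0.515 at day 3, 1.23, 0 and 0 at day 6 and 1.21, 0 and 2.02 at day 12. Esr1 was not called in the BM comparisons, and the lowest BM library exceeded the highest iPSC library. Prkcb, a protein kinase C isoform of blood cells, Pde7b, a cyclic AMP phosphodiesterase, Grk3, which desensitizes receptors coupled to G proteins, Arhgap15, a Rac GTPase-activating protein, Sesn3, a stress-induced inhibitor of mTORC1 signalling, and Zfp709, a zinc finger protein, were not called either.

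The other 13 members include cytoskeletal, membrane and little-described genes. In the fit of 24 libraries 2 rose at day 3 against day 0, and 2 rose and 1 fell at day 12 against day 0. Of all genes 11.9% rose at day 3, and 14.7% rose and 9.08% fell at day 12. In the fit on the 12 BM libraries alone, Nxpe5, Vill, Tmem51 and Fcho1 also rose at day 3 (adjusted p = 1.4e-08 to 0.0014). In that fit AI662270, Fam110b, Ankrd33b and Kctd12b fell at day 3 (adjusted p = 7e-05 to 0.0014). AW112010 is an interferon- and lipopolysaccharide-inducible transcript, first classed as non-coding. In BM macrophages AW112010 had 10.7, 15.7 and 9.13 CPM at day 0, 143, 164 and 139 at day 3, 93.3, 83.2 and 69.45 at day 6 and 69.9, 60.2 and 83.3 at day 12. In iPSC macrophages AW112010 had 0.906, 0.566 and 3.77 CPM at day 0, 3.796, 1.597 and 5.56 at day 3, 1.97, 2.01 and 7.82 at day 6 and 3.64, 1.02 and 4.84 at day 12. The co-cultured BM libraries were all above those at day 0. AW112010 rose at day 3 (log2 fold change 3.57 ± 0.53 SE, adjusted p = 4e-05) and was above day 0 at day 12 (log2 fold change 2.41 ± 0.51 SE, adjusted p = 0.0013). Cpne2, a calcium-dependent phospholipid-binding copine, rose at day 3 (log2 fold change 1.37 ± 0.47 SE, adjusted p = 0.042), a call lost without any 1 of the 6 libraries (adjusted p = 0.079 to 0.13). Cep85 encodes a centrosomal protein. In BM macrophages Cep85 had 156, 153 and 127 CPM at day 0, 159, 214 and 160.3 at day 3, 186, 204 and 207 at day 6 and 296, 382 and 349 at day 12. In iPSC macrophages Cep85 had 42.2, 37.35 and 31.5 CPM at day 0, 27.9, 32.05 and 25.75 at day 3, 34.95, 49.7 and 28.8 at day 6 and 53.99, 40.3 and 56.2 at day 12. The BM day 12 libraries exceeded every earlier BM library. Cep85 rose at day 12 against day 0 (log2 fold change 1.06 ± 0.17 SE, adjusted p = 4.7e-05) and against day 3 (log2 fold change 0.85 ± 0.17 SE, adjusted p = 0.0015). Ankrd33b, an ankyrin repeat gene, fell at day 12 against day 0 (log2 fold change -2.50 ± 0.67 SE, adjusted p = 0.0099), lost without BM day 12 replicate 1 (adjusted p = 0.057). Vill, which encodes a villin-like protein, fell at day 12 against day 3 (log2 fold change -1.33 ± 0.41 SE, adjusted p = 0.041), lost without any 1 of the 6 libraries (adjusted p = 0.099 to 0.14). Fcho1, which starts clathrin-coated pits, Plscr4, a phospholipid scramblase, Tmem51, Nxpe5, Fam110b, Kctd12b, AI662270 and BC064078 were not called in the BM comparisons.

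**Figure D4:**
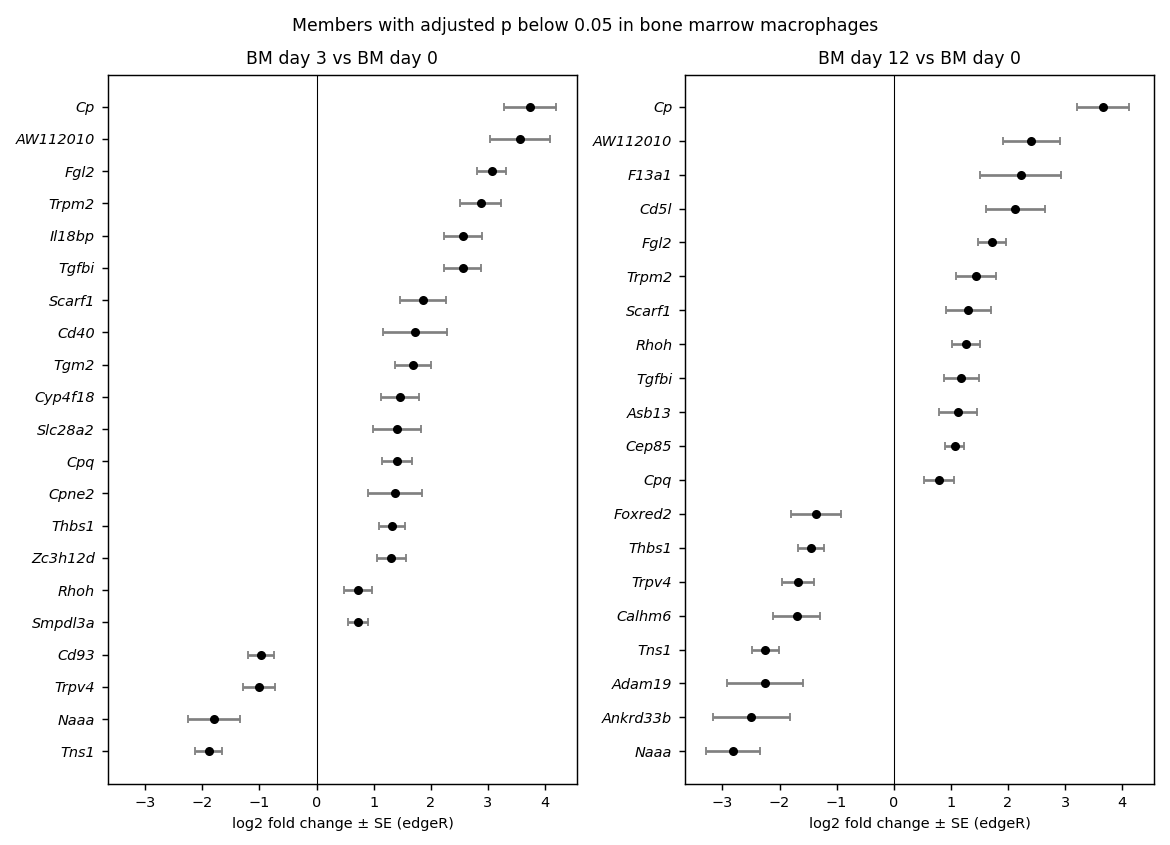
Log2 fold change (edgeR, bars are ± SE) of the members called at an adjusted p below 0.05 in BM macrophages, day 3 against day 0 on the left (17 higher, 4 lower) and day 12 against day 0 on the right (12 higher, 8 lower). Cp lies at the top of both panels at 3.74 and 3.66, and Tns1, Naaa and Trpv4 lie below 0 in both.

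Members given above as not called were judged in the fit of 24 libraries. The number of calls differed in a fit on the 12 BM libraries alone, which called some of those members. The latter fit changes the estimate of the replicate spread, the filter and the scaling together. In that fit 32 members rose and 9 fell at day 3 against day 0, where 18.5% of 13812 tested genes rose and 12% fell. At day 12 against day 0, 21 rose and 23 fell (21.2% and 15% of all tested), and at day 12 against day 3, 7 rose and 34 fell (9.88% and 10.4% of all tested). The 3 BM libraries of the 2 days did not overlap for 45 members at day 3 against day 0 (42.2% of all genes), 42 members at day 12 against day 0 (42.8%) and 43 members at day 12 against day 3 (35%).

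In iPSC macrophages 18 members rose and 9 fell at day 12 against day 0, where 14% of all genes rose and 10.7% fell, and 15.3% and 14.7% of the 7432 genes with at least 10 CPM in BM macrophages on each day. The median log2 change was 0.22 for members and 0.04 for all genes. All members stayed below the BM level, which the rule fixes. Of the members called, Napsa, Foxred2, Slc28a2 and Vill, all among the 9 that fell, passed the filter on low counts only through the BM libraries, where the rule makes them high; among the 51 members that pass it on the iPSC libraries, 18 rose and 5 fell. In a fit on the 12 iPSC libraries alone 12 members rose and 3 fell, where 9.82% of 13530 tested genes rose and 7.86% fell. The calls of Trpm2 (adjusted p = 0.055), Asb13 (adjusted p = 0.062), Akr1c13 (adjusted p = 0.073), Cep85 (adjusted p = 0.094), Pid1 (adjusted p = 0.098), Tmem51 (adjusted p = 0.1), Ankrd33b (adjusted p = 0.13) and Fgl2 (adjusted p = 0.17) were lost in that fit.

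The secreted genes Cd5l, Cp and F13a1, whose values in every library are given above, rose in iPSC macrophages. Cd5l changed by log2 fold change 5.48 ± 0.62 SE, adjusted p = 2.5e-06, and its 3 iPSC day 12 libraries differed widely, at 275, 43.6 and 650.4 CPM, and without iPSC day 12 replicate 3 the log2 change was 4.55. Cp changed by log2 fold change 5.86 ± 0.62 SE, adjusted p = 6.3e-07, or by 7.02 without iPSC day 0 replicate 3. F13a1 changed by log2 fold change 3.85 ± 0.79 SE, adjusted p = 0.0016, or by 4.83 without iPSC day 0 replicate 1, and its iPSC day 12 libraries were the only iPSC libraries above 100 CPM. Thbs1 (log2 fold change 1.87 ± 0.25 SE, adjusted p = 4.4e-06) and Tgfbi (log2 fold change 1.44 ± 0.31 SE, adjusted p = 0.0018) also rose, and with them Cpq (log2 fold change 2.20 ± 0.33 SE, adjusted p = 2.3e-05), Cyp4f18 (log2 fold change 2.36 ± 0.36 SE, adjusted p = 4.5e-05), Prkcb (log2 fold change 2.01 ± 0.30 SE, adjusted p = 2.2e-05) and Rhoh (log2 fold change 1.51 ± 0.26 SE, adjusted p = 0.00013). Trpm2 rose by 2.52 on the log2 scale in iPSC macrophages, and by 1.69 without iPSC day 12 replicate 3.

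Some members had 0 counts in an iPSC group. In BM macrophages Nxpe5 had 85.8, 86.4 and 80.6 CPM at day 0, 233.5, 186 and 223 at day 3, 242, 262 and 245 at day 6 and 195, 202 and 187 at day 12. In iPSC macrophages Nxpe5 had 0, 0 and 0 CPM at day 0, 0.0926, 0 and 0.824 at day 3, 0.123, 0 and 2.765 at day 6 and 17.7, 3.39 and 40.2 at day 12. Nxpe5 had no counts at iPSC day 0 and was at least 184-fold higher at day 12, taking a floor of 3 counts over the 3 libraries of the group; the 3 iPSC day 12 libraries ran from 3.39 to 40.2 CPM. In iPSC macrophages Slc9a7 had 0, 0 and 0 CPM at day 0, 2.685, 3.94 and 1.545 at day 3, 6.28, 2.52 and 1.05 at day 6 and 3.97, 1.19 and 4.74 at day 12. By the same floor Slc9a7 was at least 29.7-fold higher at iPSC day 12 than at day 0. In iPSC macrophages Ldlrad3 had 0.566, 0.113 and 0 CPM at day 0, 7.78, 6.175 and 5.36 at day 3, 5.66, 0.252 and 5.72 at day 6 and 8.39, 29.8 and 6.76 at day 12. Ldlrad3 rose (log2 fold change 6.16 ± 0.91 SE, adjusted p = 4.1e-05), by 5.11 without iPSC day 12 replicate 2 and by 7.92 without iPSC day 0 replicate 1. These floors cover counting error only.

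The 9 that fell in iPSC macrophages included both SLAM receptors. Slamf7 (log2 fold change -3.62 ± 0.53 SE, adjusted p = 4.5e-05) and Ly9 (log2 fold change -0.95 ± 0.21 SE, adjusted p = 0.0018) were lower at iPSC day 12, with every day 12 library below every day 0 library. Without iPSC day 12 replicate 2 the change of Slamf7 was -4.39. In iPSC macrophages Tspan32 had 19.02, 19.5 and 17.1 CPM at day 0, 1.02, 0.639 and 0 at day 3, 0.738, 2.64 and 0.286 at day 6 and 1.104, 0 and 0.605 at day 12. Tspan32 fell (log2 fold change -4.97 ± 0.56 SE, adjusted p = 8.5e-07), by 5.87 without iPSC day 12 replicate 1 and by 4.32 without iPSC day 12 replicate 2. The next 4 genes had few iPSC counts, and their calls are not read as results. Napsa, with no counts at iPSC day 12, was at least 51.1-fold lower than at day 0, although 1 of 3 day 0 libraries held only 0.215 CPM. Slc28a2 had 0 counts in the iPSC day 12 libraries and 11 counts in the iPSC day 0 libraries, at least 4.09-fold lower by the same floor. Foxred2 had 1 count in the iPSC day 12 libraries; the count ratio of day 0 over day 12 was 22.8 (exact 95% interval 3.65 to 946). Vill had 6 counts in the iPSC day 12 libraries and 52 counts in the iPSC day 0 libraries. Akr1c13 rose (log2 fold change 1.5 ± 0.40 SE, adjusted p = 0.0075), but the log2 change was 0.42 (adjusted p = 0.33) without iPSC day 12 replicate 3.

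**Figure D5:**
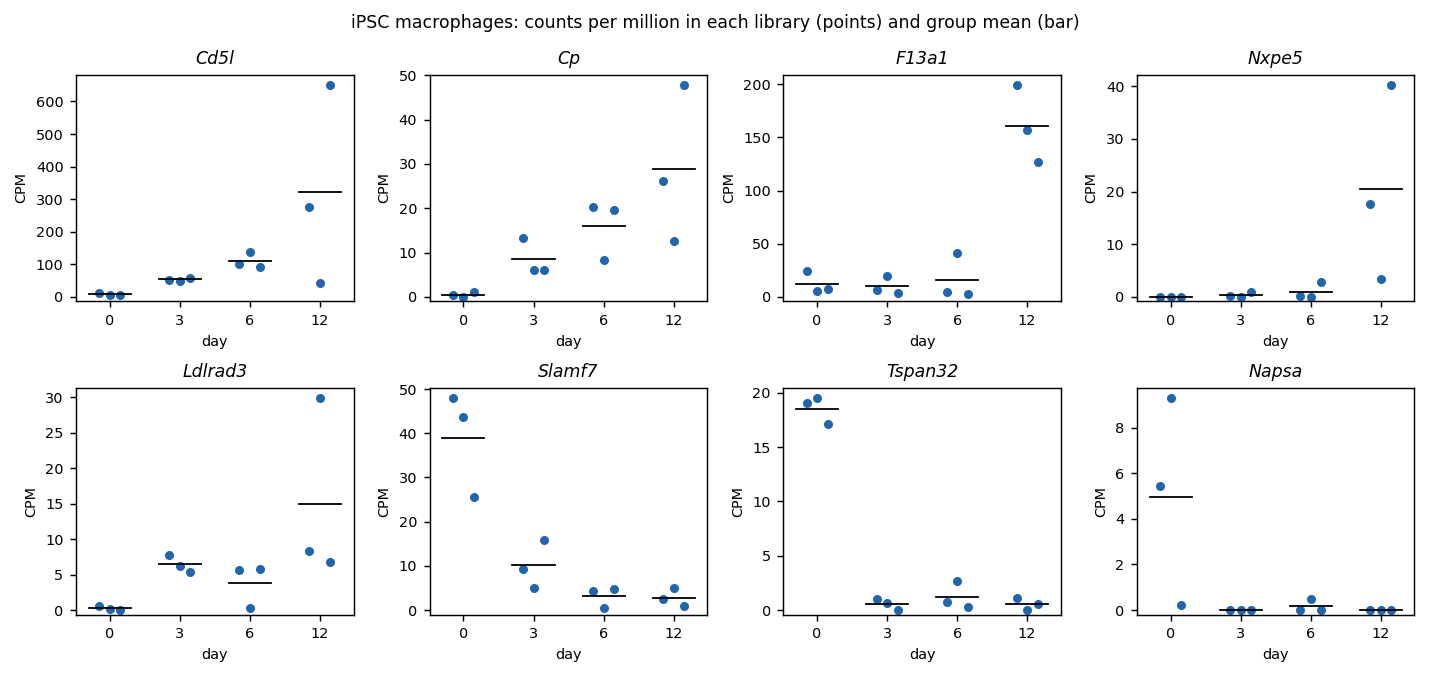
CPM of 8 members in each iPSC library (points) with the mean of 3 (bar) over days 0, 3, 6 and 12. Cd5l, Cp, F13a1, Nxpe5 and Ldlrad3 are highest at day 12, where replicates of all but F13a1 spread widely. Slamf7, Tspan32 and Napsa are highest at day 0.

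Other gene lists, picked with earlier results of these data known, are read against the shares of all genes given above (11.9% rose and 6.61% fell at BM day 3 against day 0, and 4.2% rose and 4.25% fell at BM day 12 against day 3). Of 30 genes of the type I interferon response, 29 rose at day 3 against day 0 (median log2 change 2.43, against 0.04 over all genes) and 27 rose at day 12 against day 0, while at day 12 against day 3, 1 rose and 10 fell. In iPSC macrophages 17 of the 30 fell at day 12 against day 0, where 10.7% of all genes fell. Before co-culture the 30 genes summed to 933.2 to 1485 CPM in BM libraries and 5099 to 7160 CPM in iPSC libraries. At day 3 the sums were 5953 to 6068 CPM in BM and 2927 to 3481 CPM in iPSC libraries. Of 16 tested interferon-inducible GTPases 11 rose at day 3 in BM macrophages, and 4 fell at day 12 against day 3. Of 16 MHC class I presentation genes 13 rose at day 3, and of 10 tested MHC class II presentation genes 2 rose. At day 12 against day 3, 6 of the class I genes and 4 of the class II genes fell. Of 22 tested genes of the monocyte and adult marrow lineage, which include F13a1 and Napsa, 11 rose and 1 fell at day 3, and at day 12 against day 3, 1 rose and 7 fell. Of 28 tested paired and immunoglobulin-like receptors 11 rose and 4 fell at day 3, and at day 12 against day 3, 1 rose and 11 fell. Of 18 tested complement genes 9 rose at day 3, and at day 12 against day 3, 1 rose and 4 fell. Of 24 tested genes of Toll-like receptors and inflammatory sensing 10 rose and 1 fell at day 3, and 5 fell at day 12 against day 3. The microglia signature ran the other way at the later days: of 15 genes 8 rose at day 3 against day 0, and 6 rose at day 12 against day 3. Alternative activation genes were mixed, with 5 of 14 tested higher and 5 lower at day 3, and 4 higher and 1 lower at day 12 against day 3. Of 8 tested Fc receptors 2 rose and 1 fell at day 3, and 1 rose and 4 fell at day 12 against day 3. Of 24 tested haematopoietic transcription factors 5 rose and 2 fell at day 3, and 1 rose at day 12 against day 3.

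Promoter sequence could be looked up for 46 members in the RefSeq table for GRCm38.p6, which holds 250 bases before to 50 bases after each transcription start. Letters of an interferon-stimulated response element, searched as GAAA, any 2 bases and GAAA on either strand, were found in 7 of the 46 members (15.2%), against 3.99% of 27025 genes with such a window. They were Arhgap15, Calhm6, Esr1, Ldlrad3, Nectin4, Pilrb2 and Tgfbi. The 27025 genes were not limited by expression. The windows of Calhm6, Pilrb2 and Tgfbi are shown because these 3 also fell in BM macrophages at day 12 against day 3, so they were picked by outcome. Il18bp, Trpm2, Vill and Pid1 fell there too and have a window without a match, while Thbs1 and Tgm2 fell and have no window. The capitals mark the matched letters, and all 3 sequences run 5′ to 3′ on the strand of the gene.
Calhm6: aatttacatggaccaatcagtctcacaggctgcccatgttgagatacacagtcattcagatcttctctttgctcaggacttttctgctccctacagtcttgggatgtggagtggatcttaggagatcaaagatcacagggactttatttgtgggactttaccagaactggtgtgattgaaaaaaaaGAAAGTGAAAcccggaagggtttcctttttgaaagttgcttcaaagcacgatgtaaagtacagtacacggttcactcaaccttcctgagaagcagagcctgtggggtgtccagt
Pilrb2: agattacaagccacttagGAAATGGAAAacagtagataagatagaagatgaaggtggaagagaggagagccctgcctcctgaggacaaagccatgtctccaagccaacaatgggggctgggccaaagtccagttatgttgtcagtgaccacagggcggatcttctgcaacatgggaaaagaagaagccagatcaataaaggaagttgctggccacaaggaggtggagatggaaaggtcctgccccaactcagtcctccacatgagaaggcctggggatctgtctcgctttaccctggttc
Tgfbi: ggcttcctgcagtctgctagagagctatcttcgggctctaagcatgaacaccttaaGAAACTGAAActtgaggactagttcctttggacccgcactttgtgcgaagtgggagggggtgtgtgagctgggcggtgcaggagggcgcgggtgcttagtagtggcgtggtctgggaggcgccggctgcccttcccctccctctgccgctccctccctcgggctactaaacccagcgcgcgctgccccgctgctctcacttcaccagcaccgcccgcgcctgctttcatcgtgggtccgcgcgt
The Calhm6 window is chr10:34127923-34128222 on the minus strand, and its match begins 64 bases before the start. The Pilrb2 window is chr5:137871709-137872008 on the minus strand, and its match begins 232 bases before the start. The Tgfbi window is chr13:56609336-56609635 on the plus strand, and its match begins 194 bases before the start. The other 4 genes with a match were not called in any of the 3 BM comparisons. The remaining motifs were found about as often in members as in all genes with a window or less often. They were a gamma-activated (GAS) element, TTCNNNGAA, in 8.7% against 9.55%, a PU.1 site, GAGGAAGT, in 2.17% against 3.69%, an AP-1 site, TGANTCA, in 10.9% against 8.97%, a C/EBP site, TTGCNNAA, in 8.7% against 12.2%, a MAF half-site, TGCTGAC, in 6.52% against 5.28%, a CCAAT box in 41.3% against 41.1% and a TATA box, TATAAA, in 10.9% against 15.7%. Each was searched on both strands and overlaps between motifs were not removed. A match of letters does not show binding.

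Some members are neighbours in the genome. On chromosome 1, Nectin4, Ly9 and Slamf7 lie in a row, 200 kb and 24.99 kb apart, with 11 other genes in the first gap and none in the second. Pilrb2 and Nxpe5 lie 354 kb apart on chromosome 5 with 28 genes between them. Fcho1, Zfp709 and Cyp4f18 lie on chromosome 8 with gaps of 156 kb and 92.8 kb. Over the 12 BM libraries, the level of Ly9 on the log2(CPM + 1) scale was most like that of Slamf7 among the members (Pearson r = 0.90), while Nectin4 was most like Cpq (r = 0.90). These correlations describe 12 libraries that share their days and are given without a test.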

How the data were processed

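RNA from 24 libraries was made with a SMART-seq2 protocol from 2 ng of total RNA and sequenced as 51-base read pairs, per the labels' protocols. The deposited table holds raw read counts per gene; per the file headers it was made with featureCounts 1.5.0-p1 on GENCODE M9 genes of GRCm38 (mm10), and per the submitters' processing notes reads were aligned with STAR. That kit does not mark strand, so reads of a gene and of an overlapping antisense gene cannot be told apart; exons of 14 members overlap an exon of another gene, and only Tgm2 shares at least 20% of its exon bases. No pair of libraries held the same counts. Nothing in the labels says which cultures or animals the replicates came from beyond calling them independent, so p-values measure the spread between these libraries.

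Groups were taken from the labels. Gene IDs were matched to symbols (47224 matched, 419 did not). CPM is the count over the library total times 1000000, and CPM per kb divides it by exon length. Changes between days were tested with edgeR 4.0.16 (R 4.3.3, TMM scaling, filterByExpr, robust quasi-likelihood, 1 fit of 24 libraries with 8 groups, biological coefficient of variation 0.338), with Benjamini-Hochberg adjustment over 15000 genes and a threshold of 0.05. All 61 members passed the filter, which the rule makes likely since they are high in BM macrophages. Tested on simulated data for BM day 12 against day 0 (14360 genes, 100 changed at each fold), 48% of 2-fold and 91% of 4-fold changes were recovered, and 5.44% of calls were false. Only genes above a floor of counts at BM day 0 were changed, and far fewer than were called in the data. These rates therefore do not cover genes of low counts or that number of changes. Alternatives were DESeq2 1.42.0, other scalings and filters, a replicate block, fits on fewer libraries and each library left out. The members and gene lists were chosen with earlier results of these data known. Genes named with values are the 12 of highest BM level, the largest called changes in each comparison whose libraries do not overlap (8 each way for BM day 12 against day 0, 4 elsewhere), those at either end of the ratio, neighbours within 500 kb, gene families and list members, and no member met the part on 0 counts in all iPSC libraries; the grouping by role and other members named were chosen after their values were seen. Intervals and floors cover counting error only. Counting and figures used Python 3.11.15, pandas 2.3.3 and matplotlib 3.10.9.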

Additional observations from a re-analysis of the deposited data

Results flagged for a closer look

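For Thbs1 and Tgm2, the day 12 libraries lay on one side of all day 0 libraries in BM macrophages and on the opposite side in iPSC macrophages; the differences between the sources were not tested. The log2 ratio of day 12 over day 0 mean CPM of Thbs1 was -1.28 in BM macrophages and 1.74 in iPSC macrophages, from means of 313 and 760 CPM at BM days 12 and 0, and of 44.1 and 13.2 CPM at iPSC days 12 and 0. For Tgm2 it was 0.73 in BM macrophages and -0.94 in iPSC macrophages, from means of 267 and 160.3 CPM at BM days 12 and 0, and of 7.11 and 13.7 CPM at iPSC days 12 and 0; Tgm2 was not called in either source over that interval. Counts of other genes cannot be separated from Tgm2 over 21.8% of its exon bases.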

How the results depend on the processing

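The number of members was 142 with a ratio of at least 2, 50 with a ratio of at least 4, 81 with at least 5 CPM, 35 with at least 20 CPM, 68 with medians (55 shared), 59 with TMM-scaled CPM (58 shared) and 60 to 65 with 1 library left out. Without the filter on low counts, 26 members rose and 8 fell at BM day 3 against day 0, 15 fell at BM day 12 against day 0 and 26 fell at BM day 12 against day 3. With only the 2 groups compared in the fit, 32 rose and 10 fell, 21 rose and 19 fell, and 7 rose and 34 fell in these comparisons, and 3 fell at iPSC day 12 against day 0. With only the 12 libraries of the source, chosen after seeing the data, the counts were 32 and 9, 21 and 23, 7 and 34, and 3 fell in iPSC macrophages. With 1 library left out, 13 to 15 rose and 3 to 4 fell at BM day 3 against day 0, 8 to 11 rose and 5 to 8 fell at BM day 12 against day 0, 1 to 2 rose and 8 to 10 fell at BM day 12 against day 3, and 14 to 21 rose and 6 to 11 fell at iPSC day 12 against day 0. The lowest of these counts came without BM day 12 replicate 1 (5 lower, day 12 against day 0), BM day 3 replicate 3 (1 higher, day 12 against day 3) and BM day 3 replicates 1 and 3 or BM day 12 replicate 3 (8 lower). The cause was not tested. Same-numbered replicates did not deviate together in these comparisons (correlations -0.04 to 0.04). That check cannot tell whether replicates of one number share a culture or batch. With the numbers as a replicate block 22 rose and 5 fell, 15 and 9, 3 and 18, and 20 and 10 in the same order. Without scaling factors the median change of all genes shifted by 0.17 at BM day 12 against day 0 and by -0.12 at iPSC day 12 against day 0, and the share of all called genes that rose was 76.1% (61.8% with TMM) and 45.7% (56.6% with TMM), and 60.97% (49.7% with TMM) at BM day 12 against day 3. Among members 15 rose and 8 fell at BM day 12 against day 0, and 16 rose and 10 fell at iPSC day 12 against day 0. By DESeq2 21 rose and 5 fell, 13 and 8, 3 and 16, and 20 and 10. The 69 called changes of named members were recomputed 958 times; none reversed, and 91 of these repeats missed the threshold, 76 of them with 1 library left out. How far the spread between 3 libraries and, in iPSC macrophages, levels of few counts limited the calls was not tested.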
